A study of Mus musculus with 8 samples.

Results

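Histone genes were read on 8 mouse expression arrays by 92 probes that carry 71 gene names, out of 56605 probes and 37074 names in all. They were all the probes whose name on the array starts with Hist and a cluster number, or with H2af, H3f3 or H1f. Of the 71 genes, 56 are replication-dependent histone genes of the Hist1 to Hist4 clusters, with 68 probes, and 15 are genes named as replacement or variant histones, with 24 probes. The RNA came from cardiac mesenchymal stromal cells (cMSCs), the fibroblast-like cells of the heart, sorted from digested ventricles of male C57Bl/6 mice as CD45- CD31- Sca-1+ PDGFRα+ cells and lysed without culture. There were 4 pools from young mice, labelled 5 months, and 4 pools from aged mice, labelled 20 months, with 1 array to a pool and no treatment in either group. The study's methods give a somewhat lower mean age for the young mice and a spread of ages in both groups, and 3 mice to a pool, while the title of aged replicate 4 names what may be only 2 mice. The methods name C57Bl/6JRj mice and a CX3CR1 gfp/+ CD45.1 reporter line, without saying which of them gave these pools.

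Histones are the proteins around which DNA is wound, 2 copies each of H2A, H2B, H3 and H4 in a nucleosome, with H1 on the DNA between nucleosomes. The genes in the Hist clusters are transcribed in S phase, when new DNA has to be packed, and most of their mRNA ends in a stem-loop bound by Slbp in place of a poly(A) tail. Replacement histones such as H3.3 and H2A.Z are made throughout the cell cycle from ordinary polyadenylated mRNA and keep supplying chromatin in cells that no longer divide. The labelling kit named in the labels primes cDNA with oligo(dT), so that RNA ending at the stem-loop has no tail for the primer. What share of the signal of any histone probe came from RNA with a tail was not tested.

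Where a probe lies on the histone transcript was read from its 60 bases. The histone stem-loop consensus was searched for in the sense strand, whole or cut by an end of the probe with at least 8 letters left. It was found whole in 6 of the 92 histone probes and in 1 of the 56513 other probes, and whole or cut in 12 histone probes and in 45 others, or 13.0% and 0.0796%. Of the 12 histone probes, 7 were bright enough to be tested. A stretch of at most 30 bases from 5 of these 7 is shown, with the stem-loop letters in capitals, because the stem-loop is the element at which the S phase message is cut.
Hist1h3a: gaattaaccaaaGGCTCTTTTCAGAGCCac
Hist1h2bf: tcctaacccaaaGGCTCTTTTCAGAGCCac
Hist2h2bb: ctttacccaaaaGGCTCTTTTCAGAGCCac
Hist1h4m: ttctcaactaaaGGCCCTTTTCAGGGCCat
Hist1h2ab: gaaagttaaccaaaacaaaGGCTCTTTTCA

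A further 19 probes without stem-loop letters were taken to lie beyond the ordinary stem-loop end, at position 500 or more of the annotated transcript (700 or more for the longer H1 genes). This limit is one of position alone, and the Hist1h2ae probe at position 542 still holds stem-loop letters. Whether each of the 19 reads only long transcripts of its gene was not tested. The remaining 37 probes lie before the stem-loop, mostly in coding sequence. The genes that fell in aged cMSCs are shown with the sequence their probes read. The probes of Hist2h2be and Hist2h3c1 lie beyond the stem-loop, and the last 30 bases of each are given. The Hist1h3c probe lies at the end of the coding sequence and is given up to its stop codon, which is in capitals.
Hist2h2be, first probe: ttttgtggggagtgtagcatactgagtttt
Hist2h2be, second probe: ttttcaagtgggtagacactgttattatta
Hist2h3c1: tagttaacaccctcaacaaccctggtctaa
Hist1h3c: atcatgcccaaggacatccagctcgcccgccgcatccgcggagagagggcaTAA

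On each array 57.8% to 63.4% of spots were well above background and none was saturated. A level is the log2 of the background-corrected signal minus the 75th percentile of its array. Levels of different probes are not compared, but the summed signals of marker genes add them, so that the brightest probes weigh most there. A probe was kept if either group had it well above background on each of its 4 arrays, which left 20096 genes, 54 of them histone genes: 42 of the 56 replication-dependent and 12 of the 15 replacement genes. The lowest signal called well above background lay between -5.87 and -4.90 on the 8 arrays, so that levels near -5 carry little signal. Among 7 genes of cMSCs, Pdgfra had a level of 5.08 to 5.50 in all 8 pools and differed by -0.20 without passing. Ly6a, which encodes Sca-1, rose by 0.67 on the log2 scale and Thy1 fell by 0.71. Of the 7 genes, 5 were lower in aged pools, with a median of -0.20 over the 7, while Ly6a and Lum were higher. Col1a1 and Col1a2 differed by -0.37 and -0.36 without passing, and for both every aged pool lay below every young pool. Of the 4 neutrophil markers measured, 3 rose in aged pools, and the log2 of their summed signal was 0.36 to 0.93 in young and 1.57 to 3.29 in aged pools. Of 6 leukocyte markers Cd14 rose, while Ptprc, which encodes CD45, was at 1.28 to 1.50 in young and 1.28 to 1.60 in aged pools. All 5 cardiomyocyte markers measured were lower in aged pools and 1 of them, Tnni3, fell. Their median difference was -0.47, and the log2 of their summed signal was 2.63 to 3.02 in young and 1.90 to 2.63 in aged pools. None of 6 endothelial and 2 mesothelial markers passed the test. Fcgr1, Ngp, Ryr2, Upk3b and Lrrn4 were not well above background on all arrays of either group. In bulk RNA, fewer cells of a type and less RNA per cell cannot be told apart, and the part of other cells in the histone results was not tested.

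Of the 42 replication-dependent genes tested, 3 fell and none rose in aged cMSCs, at an adjusted p under 0.05 by limma with Benjamini-Hochberg adjustment over all 20096 genes. At the same threshold 0.791% of all genes fell and 2.45% rose. The 3 were Hist2h2be, a gene for H2B on chromosome 3, and 2 genes for H3, Hist2h3c1 on chromosome 3 and Hist1h3c on chromosome 13. In 10 of the 42 genes every aged pool lay below every young pool, against 3.86% of all genes, and in none of the 42 did every aged pool lie above, against 6.85% of all genes. Of these 10 genes, 8 were among the 36 that were well above background on all 8 arrays. Among the 10 were 4 genes for H4, whose coding sequences are close to each other, so that the 10 are not independent readings. At an unadjusted p under 0.05, 14 genes were lower, 5 of them for H4, and 1 was higher, against 5.44% and 8.69% of all genes. The 42 genes ran from -1.23 to 0.41, with 25 below 0 and a median of -0.22, while the median over all genes tested was 0.006. That median was -0.34 within the 2 young and 2 aged pools of slide row 1 and 0.03 within those of row 2. It was -0.09 without young replicate 3. Among the 36 genes well above background on every array the median was -0.11.

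The plot of fold changes by family gives the direction of each gene, and the difference between families was not tested. Of the genes tested, 4 of 5 for H1, 5 of 6 for H3 and 8 of 9 for H4 lay below 0, as did 4 of 11 for H2A, 4 of 11 for H2B and 5 of the 12 replacement genes.

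**Figure D1:**
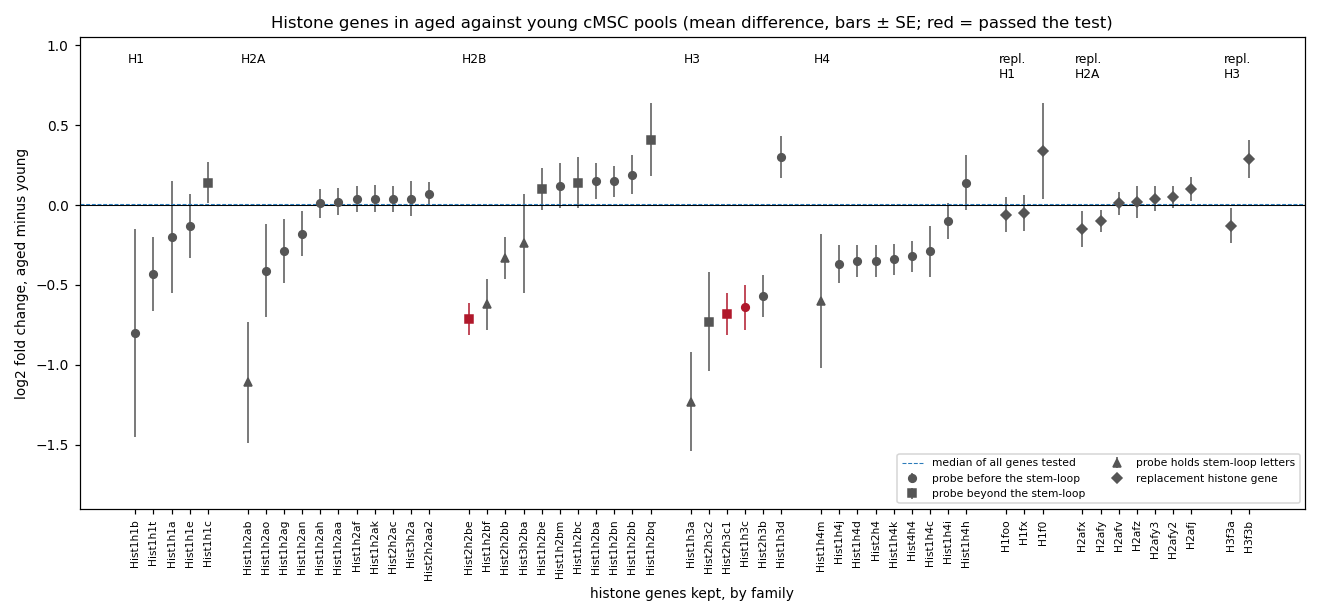
Log2 fold change, aged minus young (y axis), of the 54 histone genes tested, by family (x axis), with bars of ± SE from limma. Symbols give the place of the probe, the dashed line is the median of all genes tested, and the 3 genes that passed the test, Hist2h2be, Hist2h3c1 and Hist1h3c, are in red between -0.71 and -0.64.

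Hist2h2be, an H2B gene known for a long polyadenylated transcript beside its stem-loop form, had the lowest p of all histone genes. The second and brighter of its probes (mm9 chr3:96027578-96027637, plus strand) had levels of -0.92, -1.22, -1.01 and -0.98 in young replicates 2, 3, 4 and 5. In aged replicates 1 to 4 the same probe was at -1.77, -1.54, -1.80 and -1.86. Every aged pool lay below every young pool, with young replicate 3 and aged replicate 2 the closest pair. The gene fell by 0.71 on the log2 scale (SE 0.10, limma adjusted p = 0.00829), from -1.03 ± 0.13 (SD, n = 4) to -1.74 ± 0.14 (SD, n = 4), or 1.64-fold. Its first probe (mm9 chr3:96027381-96027440) was at -1.33 to -1.19 in young and -2.08 to -1.85 in aged pools. Tested on its own among 30824 probes, of which 0.603% fell and 1.93% rose, that probe fell by 0.74 (SE 0.082, limma adjusted p = 0.0029). The 2 probes lie close together in the same long transcript and are not independent evidence. The difference was -0.72 within slide row 1 and -0.70 within row 2, and the gene passed in 20 of 21 alternative fits.

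Of the 6 H3 genes tested, 5 were lower in aged pools and 2 of them fell. Hist2h3c1 (mm9 chr3:96052051-96052110, plus strand) was at -2.16, -2.27, -2.26 and -2.40 in young replicates 2 to 5. In aged replicates 1 to 4 it was at -3.01, -2.62, -3.22 and -2.96. All aged pools lay below all young ones, with aged replicate 2 the nearest to them. The gene fell by 0.68 (SE 0.13, limma adjusted p = 0.0278), or 1.60-fold, and by 0.65 and 0.71 within slide rows 1 and 2. It missed the threshold when young replicate 2, 3 or 4, or aged replicate 1, 3 or 4, was left out, at adjusted p values of 0.0661 to 0.0811, and passed in 11 of 21 alternative fits. With normexp background correction it fell by 0.42 and kept the call (limma adjusted p = 0.0288).

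Hist1h3c (mm9 chr13:23836950-23837009, minus strand) was at 0.40, 0.69, 0.07 and 0.58 in young replicates 2 to 5. In aged replicates 1 to 4 it was at -0.17, -0.08, -0.19 and -0.40. The young pools were more spread than the aged, and young replicate 4 came closest to the aged range. The gene fell by 0.64 (SE 0.14, limma adjusted p = 0.0498), or 1.56-fold. This value stood at the threshold: the gene passed in 8 of 21 alternative fits, and only without young replicate 4 did it pass among the 8 fits that left out 1 pool, the other 7 giving 0.0779 to 0.121. The difference was -0.92 within slide row 1 and -0.37 within row 2.

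Hist2h3b, a neighbour on chromosome 3 (mm9 chr3:96072881-96072940, plus strand) whose probe lies in coding sequence, came next below the threshold. It was at -1.14, -0.90, -1.29 and -1.36 in young and -1.75, -1.60, -1.64 and -1.99 in aged pools, without overlap, and differed by -0.57 (SE 0.13, limma adjusted p = 0.0532). Hist2h3c2, read by 2 probes beyond the stem-loop, differed by -0.73 (SE 0.31, limma adjusted p = 0.325). Its brighter probe was at 0.04, 0.00, 0.08 and -0.99 in young and -0.89, -0.27, -1.26 and -1.39 in aged pools. Young replicate 5 lay among the aged pools on this probe and on the other, where it was at -2.42 against -1.38 to -1.28 in the other young pools. Without it the difference was -0.99, with an adjusted p of 0.106.

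Hist1h3a, whose probe covers the whole stem-loop, had the largest difference of any histone gene tested, -1.23 (SE 0.31, limma adjusted p = 0.0755). Its levels were -4.39, -3.89, -4.26 and -4.59 in young and -6.48, -5.18, -5.25 and -5.14 in aged pools. It was well above background on 4 young arrays and on 1 aged array, so that 3 of the aged values carry little signal. It passed without aged replicate 1, at -0.91 and an adjusted p of 0.0388, and in the authors' table, at -0.54 and 0.049. With normexp background correction the difference was -0.30, with an adjusted p of 0.404. Hist1h3d, also read in coding sequence, was higher in the aged pools. It was at 4.50, 4.53, 4.33 and 4.25 in young and 4.61, 4.48, 4.70 and 5.02 in aged pools, with overlap, and differed by 0.30 (SE 0.13, limma adjusted p = 0.333). Its probe is shown beside that of Hist2h3b, since the pair read partly overlapping stretches of H3 coding sequence and their differences had opposite signs. The Hist1h3d probe has 42 of 48 overlapping bases in common with a probe of a transcript outside the histone names. Its order of pools was also close to that of the second probe of H3f3b, a likeness noticed after the values were seen. In both, aged replicates 4, 3 and 1 were the highest and young replicates 5 and 4 the lowest. The H3f3b probe ran from 4.88 in young replicate 5 to 5.69 in aged replicate 4 and also differed by 0.30. H3f3a, the other H3.3 gene, differed by -0.13. What any of these transcripts adds to the Hist1h3d signal was not tested.
Hist2h3b: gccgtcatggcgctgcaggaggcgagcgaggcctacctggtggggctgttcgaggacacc
Hist1h3d: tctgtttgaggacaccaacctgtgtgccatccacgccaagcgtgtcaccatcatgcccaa

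Of the 6 H3 genes, 4 had all aged pools below all young ones, against 3.86% of all genes, and the median was -0.66. Over the 5 that were well above background on all 8 arrays, 3 had no overlap and the median was -0.64. The gene left out there, Hist1h3a, was kept through the young arrays, where it was higher.

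**Figure D2:**
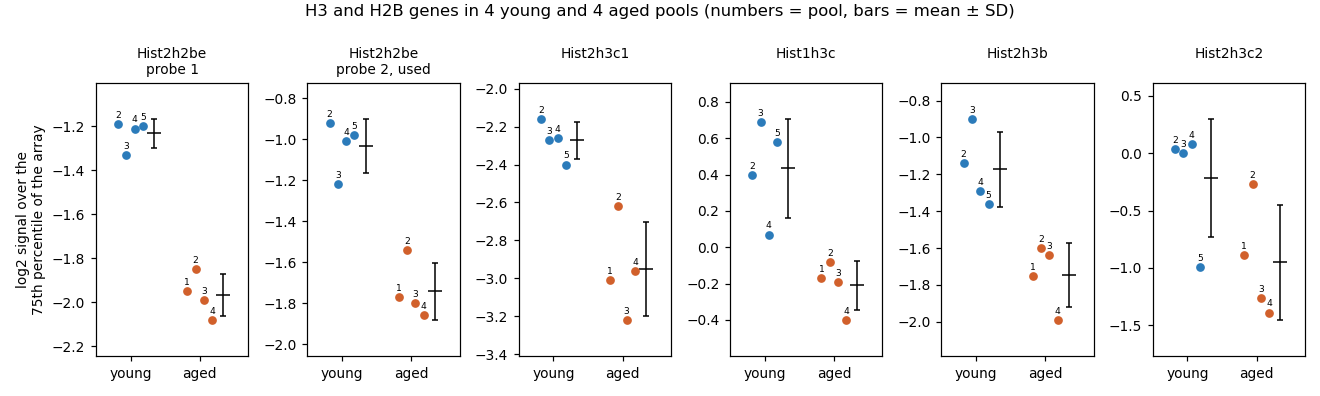
Levels (log2 signal over the 75th percentile of the array, y axis) of 5 histone genes, Hist2h2be with both its probes, in 4 young and 4 aged pools, numbered by replicate, with mean ± SD beside each group. The aged pools lie below all young pools in every panel but the last, Hist2h3c2, where young replicate 5 is at -0.99.

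All 9 H4 genes were tested, 8 were lower in aged pools and none passed. These genes encode the same protein, and their coding sequences are close to each other. Probes for 4 of them are shown to make this plain, with capitals for the bases that differ from the Hist1h4k probe where the 2 overlap. For Hist1h4k and Hist1h4d, which have 2 probes each, the dimmer one is shown.
Hist1h4k: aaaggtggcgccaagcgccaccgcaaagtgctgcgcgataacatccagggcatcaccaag
Hist1h4c: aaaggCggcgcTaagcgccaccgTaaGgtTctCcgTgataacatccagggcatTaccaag
Hist1h4d: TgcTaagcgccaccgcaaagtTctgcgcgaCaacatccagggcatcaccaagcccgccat
Hist1h4j: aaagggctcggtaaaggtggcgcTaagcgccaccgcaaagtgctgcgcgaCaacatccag

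Over the bases compared, these probes were 86.7%, 92.3% and 95.8% identical to that of Hist1h4k, and how much of each signal came from a neighbouring gene's transcript was not tested. Of the 10 H4 probes before the stem-loop, 8 differed by -0.37 to -0.29 between the groups. In 5 of these 8 every aged pool lay below every young pool, against 3.95% of all probes kept. The 5 include both probes of Hist1h4d and read closely similar coding sequences, so that they are not independent evidence. In the fit over probes the adjusted p values of these 8 ran from 0.137 to 0.511. Hist4h4, a single gene on chromosome 6 (mm9 chr6:136752717-136752776, minus strand), is one of them. It was at 3.19, 3.25, 2.90 and 2.94 in young and 2.80, 2.70, 2.75 and 2.75 in aged pools. The groups did not overlap, the aged pools were close together, and the difference was -0.32 (SE 0.097, limma adjusted p = 0.143). The brighter probe of Hist1h4k was at 5.35, 5.42, 5.05 and 5.14 in young and 4.95, 4.90, 4.87 and 4.89 in aged pools, a difference of -0.34 (SE 0.097, limma adjusted p = 0.117). Hist2h4 differed by -0.35 (limma adjusted p = 0.137), and Hist1h4d by -0.35 (limma adjusted p = 0.129).

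As the plot of H4 and H2A probes by pool shows, most of the 10 H4 probes had a like order of pools, with Hist1h4h as an exception. Relative to the mean of each probe, their median was 0.26, 0.36, -0.07 and 0.11 in young replicates 2 to 5 and -0.10, -0.18, -0.22 and -0.15 in aged replicates 1 to 4. Young replicate 3 was the highest of the 8 pools for 9 of the 10 probes and aged replicate 3 the lowest for 7. Hist1h4j, with the largest difference of these, was at 0.16, 0.28, -0.21 and 0.02 in young and -0.19, -0.37, -0.43 and -0.23 in aged pools, where young replicate 4 overlaps the aged range. It differed by -0.37 (SE 0.12, limma adjusted p = 0.162). Hist1h4h differed by 0.14 (SE 0.17, limma adjusted p = 0.832). Hist1h4m, whose probe holds the stem-loop, was near background, at -4.83 to -3.87 in young and -6.20 to -4.28 in aged pools, and differed by -0.60 (SE 0.42, limma adjusted p = 0.64).

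**Figure D3:**
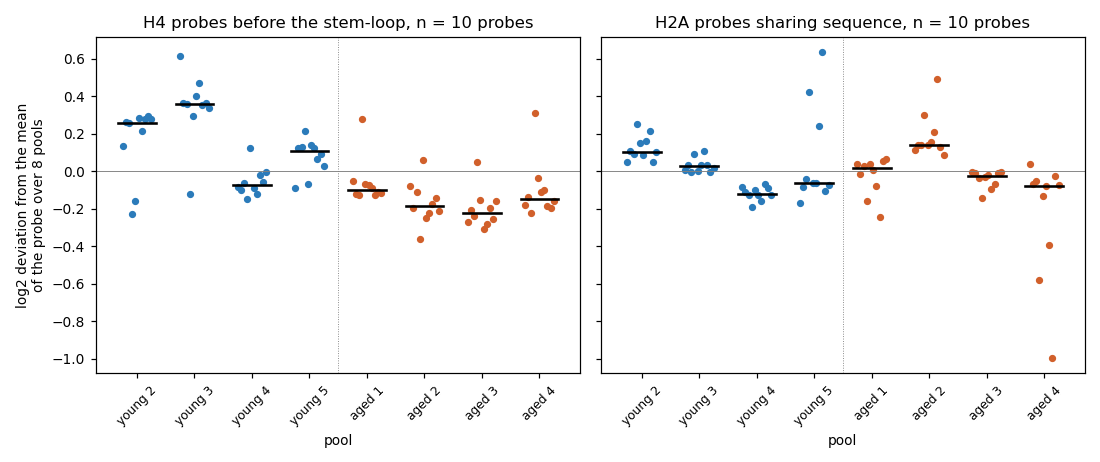
Deviation of each probe from its own mean over 8 pools (log2, y axis) in each pool (x axis), for 10 H4 probes before the stem-loop and 10 H2A probes that share sequence, with a black bar at the median of each pool. The H4 medians of the 4 aged pools lie between -0.22 and -0.10, while the H2A medians of young and aged pools overlap.

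None of the 11 H2A genes tested passed, none had groups without overlap, and the median was 0.02. Of these genes, 9 form a set with the replacement gene H2afj in which each probe shares sequence with some other, at the end of the coding sequence. Not every pair in the set does: H2afj was not matched with Hist1h2ag, Hist1h2an or Hist1h2ao. A few of these probes are shown, with capitals for bases that differ from Hist1h2ak where the probes overlap.
Hist1h2ak: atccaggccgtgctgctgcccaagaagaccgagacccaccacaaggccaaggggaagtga
Hist1h2an: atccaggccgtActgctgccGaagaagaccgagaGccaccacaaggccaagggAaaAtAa
Hist2h2aa2: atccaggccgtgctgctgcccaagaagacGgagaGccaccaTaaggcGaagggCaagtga
H2afj: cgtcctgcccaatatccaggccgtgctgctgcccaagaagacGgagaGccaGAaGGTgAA

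From the Hist1h2ak probe, Hist1h2an differed at 6 and Hist2h2aa2 at 5 of 60 bases, and H2afj at 9 of the 47 that overlap. In 7 of the 10 probes of this set the difference was within 0.1 of 0, from 0.01 to 0.10, all at levels between 4.80 and 5.29. The 95% intervals of these 7 genes lay between -0.20 and 0.27. Hist1h2ak, for example, was at 5.09, 5.03, 4.87 and 4.94 in young and 5.01, 5.16, 4.98 and 4.92 in aged pools, and differed by 0.04 (SE 0.085, limma adjusted p = 0.928). The other three, Hist1h2ag, Hist1h2an and Hist1h2ao, differed by -0.29, -0.18 and -0.41 and did not pass.

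Hist1h2ao, a gene of the Hist1 cluster (mm9 chr13:21902695-21902754, plus strand), was at 2.84, 2.66, 2.56 and 3.27 in young and 2.39, 3.12, 2.57 and 1.64 in aged pools, highest in young replicate 5 and aged replicate 2 and lowest in aged replicate 4. Mki67, which encodes the proliferation marker Ki-67, was at -1.24, -1.58, -1.48 and -0.64 in young and -1.18, -0.58, -0.92 and -2.20 in aged pools. Top2a, the topoisomerase of dividing cells, was at -2.85, -3.13, -3.03 and -2.38 in young and -2.73, -2.15, -2.72 and -4.24 in aged pools. The same 3 pools were thus at the ends for all 3 genes, a likeness noticed after the values were seen. Hist1h2ao differed by -0.95 within slide row 1, which holds young replicate 5 and aged replicate 4, and by 0.14 within row 2. Its probe is identical to that of Hist1h2an over the 34 bases where they overlap. How much of the signal of any H2A probe in the set came from another gene's transcript was not tested.

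Hist1h2ab, with part of the stem-loop in its probe (mm9 chr13:23843392-23843451, plus strand), had the largest difference among H2A genes, -1.11 (SE 0.38, limma adjusted p = 0.199). It was at 0.51, 0.32, -0.08 and 0.53 in young and -1.29, 0.06, -0.22 and -1.70 in aged pools. Aged replicates 2 and 3 lay within or near the young range and the other 2 far below it. Within slide row 1 the difference was -1.92 and within row 2 it was -0.29.

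Of the 11 H2B genes, Hist2h2be fell, 7 were above 0 without passing, and the median was 0.12. Hist1h2bf, with the whole stem-loop in its probe (mm9 chr13:23665629-23665688, minus strand), was at -4.24, -4.39, -3.99 and -4.35 in young and -4.62, -4.93, -5.28 and -4.65 in aged pools. The groups did not overlap, the levels were near background, and the difference was -0.62 (SE 0.16, limma adjusted p = 0.0853), or -0.18 with normexp background correction. Hist2h2bb, whose probe also holds the stem-loop, differed by -0.33 (SE 0.13, limma adjusted p = 0.289). The 5 kept H2B probes before the stem-loop differed by 0.12 to 0.49, and none passed. In 1 of them, the dimmer probe of Hist1h2bb, every aged pool lay above every young pool, as in 6.11% of all probes kept.

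Of the 5 H1 genes, whose products bind linker DNA, none passed. Hist1h1b was at -2.95, -3.40, -3.93 and -2.77 in young and -5.22, -4.22, -4.86 and -1.95 in aged pools, so that 3 aged pools were the lowest of the 8 and aged replicate 4 the highest. It differed by -0.80 (SE 0.65, limma adjusted p = 0.714), and by -1.50 with an adjusted p of 0.0706 without aged replicate 4. Hist1h1t, the testis H1 gene, differed by -0.43 (SE 0.23, limma adjusted p = 0.468). Hist1h1e and Hist1h1c differed by -0.13 and 0.14.

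Sorted by the place of the probe, the 7 stem-loop probes kept had a median difference of -0.60, and none passed the threshold. Only 3 of the 7 were well above background on all 8 arrays, those of Hist1h2ab, Hist2h2bb and Hist1h1c, and their differences were -1.11, -0.33 and 0.06. The others were kept through 1 group, which for Hist1h3a, Hist1h2bf and Hist1h4m was the young one, where they were higher. The 32 kept probes before the stem-loop had a median of -0.16, or -0.11 over the 30 well above background on all arrays, with none past the threshold in the fit over probes, in which Hist1h3c had an adjusted p of 0.0565. The 10 kept probes beyond the stem-loop had a median of -0.39, with 6 below 0. Of the 10, 3 fell, those of Hist2h2be and Hist2h3c1, against 0.603% of all probes kept. Hist2h2be and Hist2h3c2 have 2 probes each among the 10, which are not independent evidence. The probes of Hist2h2be, Hist2h3c1 and Hist2h3c2 differed by -0.74 to -0.68, and the others by -0.10 to 0.41. By cluster, 2 of the 8 tested genes of the Hist2 cluster on chromosome 3 fell, with a median of -0.46 over the 8. In the Hist1 cluster on chromosome 13, 1 of 31 tested genes fell, Hist1h3c, which stood at the threshold, and the median was -0.13. Of all genes 0.791% fell, and the difference between clusters was not tested. Over the 26 Hist1 genes well above background on all arrays the median was 0.01, while all 8 Hist2 genes were.

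There were 14 replication-dependent genes too dim to be tested. Hist1h3f and Hist1h3i were each well above background on 3 young arrays and on no aged array. Their means were -4.64 in young and -6.36 in aged pools for Hist1h3f, and -5.14 and -6.38 for Hist1h3i. Aged values below the lowest signal called well above background on their array were then raised to it. The young means were then 1.43-fold and 1.01-fold higher, ratios without an estimate of error. Both genes were singled out because only young arrays read them well above background, so that the direction is no separate evidence. Hist1h1d, Hist1h2ae, Hist1h2ai, Hist1h2bp and Hist2h2ab were well above background on 1 young array and on no aged array. For these the young mean lay below the aged mean raised in the same way. The Hist1h3i groups overlapped, with aged replicate 3 at -4.97 and young pools at -5.79 to -4.73. With no filter on dim probes neither gene passed, with limma adjusted p values of 0.217 and 0.588. Hist1h2ac was well above background on 3 arrays of each group, and the other 11 on at most 1 array of a group.

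None of the 12 replacement histone genes tested rose or fell, against 2.45% and 0.791% of all genes, and their median difference was 0.02. All 12 were well above background on every array. H3f3b, which with H3f3a encodes H3.3, had the lowest p. It was at 5.98, 5.91, 5.77 and 5.81 in young and 6.05, 5.95, 6.17 and 6.49 in aged pools, with aged replicate 4 the highest and aged replicate 2 within the young range. The difference was 0.29 (SE 0.12, limma adjusted p = 0.319), with a 95% interval of 0.02 to 0.57 before adjustment. Its second probe differed by 0.30. H3f3a differed by -0.13 (SE 0.11, limma adjusted p = 0.721), with levels of 4.32 to 4.71 in young and 4.15 to 4.42 in aged pools.

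H2afz and H2afv encode the H2A.Z variants found at promoters, and differed by 0.02 and 0.01, with 95% intervals of -0.21 to 0.25 and -0.16 to 0.18. With scaling to the median of each array, where the median of all genes was -0.04, they were -0.027 and -0.033, and with quantile normalization 0.018 and 0.0019. H2afx encodes H2AX, which is phosphorylated at DNA breaks. It was at 1.65, 1.31, 1.61 and 1.31 in young and 1.28, 1.44, 1.34 and 1.23 in aged pools, and differed by -0.15 (SE 0.11, limma adjusted p = 0.664). The arrays read its mRNA and not the phosphorylated protein.

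The macroH2A gene H2afy was the only replacement gene with all aged pools below all young ones, as in 3.86% of all genes. It was at 2.32, 2.46, 2.31 and 2.29 in young and 2.27, 2.26, 2.24 and 2.24 in aged pools, a difference of -0.10 (SE 0.070, limma adjusted p = 0.671). These are levels of its brightest probe. Its other kept probes differed by -0.12 to -0.04, each with groups that overlapped. H2afy2 and H2afy3 differed by 0.05 and 0.04, with 95% intervals of -0.11 to 0.20 and -0.13 to 0.21. H2afj, the H2A.J gene, differed by 0.10 (SE 0.077, limma adjusted p = 0.705), on a probe that shares sequence with replication-dependent H2A genes.

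Among replacement H1 genes, H1f0, the H1 form of resting cells, was at -3.56, -3.47, -3.21 and -4.74 in young and -3.54, -3.21, -3.54 and -3.32 in aged pools. It differed by 0.34 (SE 0.30, limma adjusted p = 0.741), and by 0.0092 without young replicate 5. H1fx and the oocyte H1 gene H1foo differed by -0.05 and -0.06. H1fnt, H2afb1 and H2afb2, which are known from testis, were not kept.

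**Figure D4:**
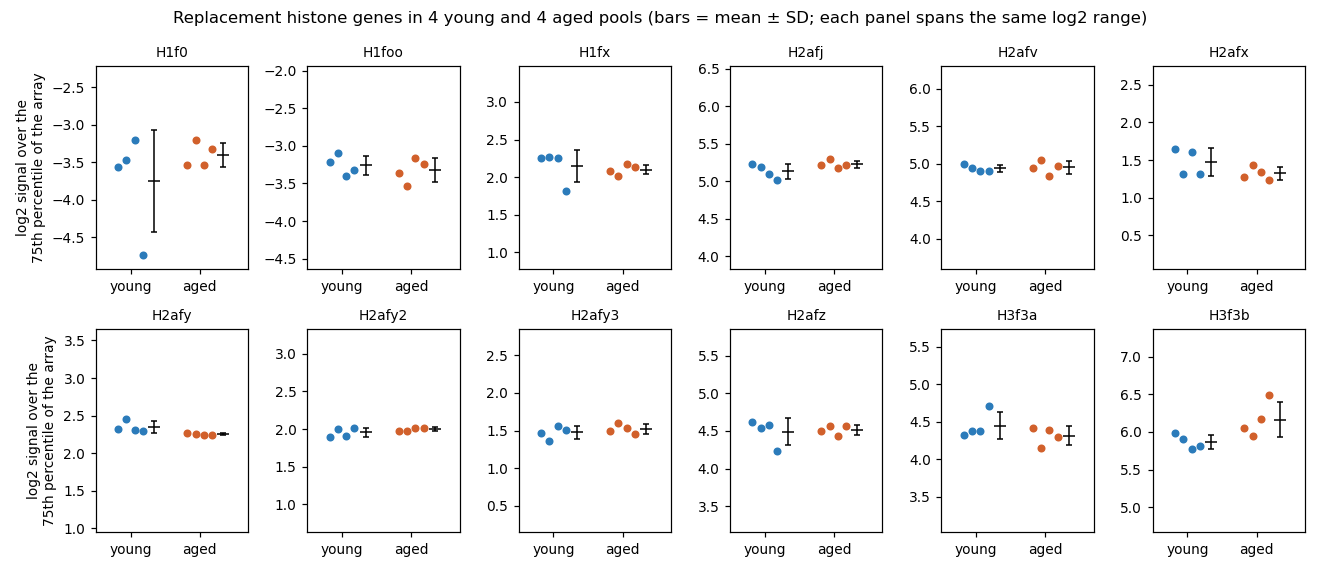
Levels (log2 signal over the 75th percentile of the array, y axis) of the 12 replacement histone genes in 4 young and 4 aged pools, with mean ± SD beside each group and the same log2 range in every panel. The groups overlap in all panels but that of H2afy, where they differ by -0.10.

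Genes that make and process histone mRNA were measured as 14 genes, and none passed. Sympk, the scaffold of the cleavage complex, was at 0.95, 1.15, 0.87 and 1.40 in young and 0.18, 0.78, 0.18 and 0.12 in aged pools, without overlap, and differed by -0.78 (SE 0.17, limma adjusted p = 0.0529). It passed in 7 of 21 alternative fits, with the lowest adjusted p, 0.0164, without aged replicate 2. Zfp473 differed by 0.55 (SE 0.18, limma adjusted p = 0.184). Slbp, which binds the stem-loop, differed by -0.07, Npat, which activates histone genes, by 0.05, and Lsm10 by -0.16.

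Of the 11 genes for chaperones and carriers of newly made histones, Chaf1b rose. It encodes the p60 subunit of CAF-1, which deposits H3 and H4 on replicated DNA, and was at -1.36, -1.27, -1.46 and -1.34 in young and -0.89, -1.06, -0.74 and -0.58 in aged pools. The groups did not overlap, and the gene rose by 0.54 (SE 0.11, limma adjusted p = 0.0398). It passed in 10 of 21 alternative fits and lost the call when any young replicate, or aged replicate 1, 3 or 4, was left out, at 0.0711 to 0.118. The other large subunit, Chaf1a, differed by 0.07, Asf1b by 0.15 and Nasp by -0.03. Among 22 genes for chaperones and exchange of replacement histones none passed. Hjurp and Cenpa, the chaperone and the H3 variant of centromeres, differed most, by -0.32 (SE 0.11, limma adjusted p = 0.187) and 0.19. Hira, Daxx and Atrx, which place H3.3, differed by -0.02, 0.13 and 0.05.

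Of 25 genes of S phase and DNA replication 23 were tested, none passed, and their median was 0.03. Cdc6 and Gins1 differed most, by 0.37 (SE 0.12, limma adjusted p = 0.166) and 0.33 (SE 0.10, limma adjusted p = 0.155), both higher in aged pools. Pcna, the sliding clamp, was at 2.91 to 3.17 in young and 3.10 to 3.17 in aged pools. Mki67 and Top2a differed by 0.01 and -0.11, with SEs of 0.35 and 0.40 and groups that overlapped.

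RefSeq on GRCm38.p6 gave 50 promoters for 49 of the 56 replication-dependent genes and 13 for the replacement genes. Hist2h2be, Hist1h3a, Hist1h3f, Hist2h4, Hist1h2al, Hist1h2bc, Hist3h2bb-ps, H2afx and H2afy3 had no entry matched and were not searched. The upstream 250 bases were searched on both strands for ATTTGCAT, the octamer of H2A and H2B promoters, CCAAT and TATAAA. The octamer was in 7 of 17 H2A and 6 of 12 H2B promoters, in none of 6 H1, 7 H3 and 8 H4 promoters, and in 1.60% of all 32851 promoters. CCAAT was in all H1, H2A and H2B promoters, in 5 of 7 H3 and in 2 of 8 H4 promoters, against 33.8% of all. TATAAA was in 24 of the 50 replication-dependent promoters and in 12.4% of all. Of 13 replacement gene promoters, 1 held the octamer and 7 CCAAT.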

How the data were processed

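The authors deposited 1 Agilent Feature Extraction 10.10.1.1 file per 1-colour (Cy3) array, in which the processed signal is a background-subtracted intensity, not normalized between arrays, and a table of normalized log2 values, used as an alternative. Control and outlier-flagged spots were left out, spots of a probe averaged, and from each log2 signal the array's 75th percentile was subtracted. For a gene with several kept probes the brightest was used. Probe positions are those of the array annotation on mm9. Aged and young pools were tested with lmFit and eBayes of limma 3.58.1 under R 4.3.3 (6 residual and 2.55 prior degrees of freedom, Benjamini-Hochberg over 20096 genes), after tests on simulated data. Summaries used numpy 2.4.6 and pandas 2.3.3.

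Named are the histone genes that passed, all tested replacement genes, the 2 largest changes of each replication-dependent family, and of each gene list up to 4 that passed or the 2 largest. Other genes named were chosen after their values were seen. The members and lists were chosen with earlier results of these data known. Alternatives were other normalizations, background correction, filters, probe rules, names, blocks, variance models, array weights, thresholds, the deposited table and leaving out each pool. Precision is limited by there being 4 arrays to a group, and p values measure the spread between pools.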

Additional observations from a re-analysis of the deposited data

Results flagged for a closer look

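In 9 of 122 groups of 4 pools, over 61 genes, 1 pool lay far from the other three by Dixon's ratio of gap to range at its 95% critical value. Chance alone gives about 1 such group in 20. Of the 9, 5 concern young replicate 5. It was at 1.82 for H1fx against 2.25 to 2.27 (ratio 0.957), at 4.71 for H3f3a against 4.32 to 4.38 (0.859), at -1.29 for Hist1h2be against -0.96 to -0.91 (0.881), at -0.99 for Hist2h3c2 against 0.00 to 0.08 (0.931), and at 1.23 for Hist3h2a against 1.63 to 1.65 (0.949). Young replicate 3 was at 2.46 for H2afy against 2.29 to 2.32 (0.846). Aged replicate 4 was at -1.24 for Hist1h2be against -0.84 to -0.77 (0.859). Aged replicate 1 was at -6.48 for Hist1h3a against -5.25 to -5.14 (0.921), all near background. Aged replicate 2 was at 0.78 for Sympk against 0.12 to 0.18 (0.909).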

How the results depend on the processing

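The count of replication-dependent genes that fell, 3 in the report, was 1 with quantile normalization, 1 with no filter on dim probes, 6 with array weights and 6 at an unadjusted p under 0.01 with a log2 fold change over 0.5. It was 1 to 2 when 1 pool was left out. No replication-dependent gene rose and no replacement gene passed under any alternative. Among all genes 652 passed, 244 with no filter, 986 with array weights and 337 to 513 without 1 pool. Same-numbered pools had correlations of deviations of 0.181, -0.17 and -0.268 for replicates 2, 3 and 4. Young replicate 5 and aged replicate 1, which share a pool code, had 0.144. The positive pairs lie in the same slide row and the negative ones do not, so these values cannot decide whether the pools were paired. With the pool number as a replicate block 16 genes passed, 0 of them replication-dependent, and with the pool code as a replicate block 262 and 1. The median of replication-dependent genes, -0.222, was -0.341 and 0.03 within slide rows 1 and 2 and -0.314 to -0.088 without 1 pool. The median of replacement genes, 0.015, was -0.03 with median scaling (all genes -0.04), -0.032 over single probes, -0.032 with the pool number as a block, -0.031 with array weights, -0.022 within slide row 2 and -0.021 to 0.04 without 1 pool. The cause of these shifts was not tested.

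Of 709 values of 31 named genes under alternatives, 634 kept direction and side of the threshold, 35 lost the call and 18 changed sign, all 18 in genes that had not passed. H2afv was at -0.033 with median scaling, -0.00016 with the pool number block, -0.034 with array weights, -0.0098 in the authors' table, -0.02 to 0.05 without 1 pool and -0.011 within slide row 2. H2afz was at -0.027, -0.064 and -0.073 with median scaling, the pool number block and array weights, -0.07 to 0.061 without 1 pool and -0.11 within row 2. H2afy3 was at -0.0036 with median scaling, H2afy2 at -0.0035 and H1fx at 0.061 within row 1, H1foo at most 0.0096 without 1 pool, and Hist1h2ao at 0.14 within row 2. Signals near background limit the stem-loop probes most.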
